A study of Caenorhabditis elegans with 2 samples.

Results

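The genes described here are 10 regulators and targets of vulval development in *Caenorhabditis elegans*: *egl-17*, *unc-62*, *lin-39*, *lin-31*, *lin-1*, *lin-3*, *let-23*, *lin-11*, *cog-1* and *lin-12*. They were taken by name from a total of 19973 protein-coding genes, by no threshold on the measured values. For each gene, every peak whose summit lay in the gene body or within 5000 bp upstream of the annotated start was collected, which gave 179 peaks in the ranked list of the series. The peaks come from transcription factor ChIP-seq of EGL-18 in young adult whole worms of strain RW12252, collected 63 h after growth was started from starved first-stage larvae. These worms carry the CRISPR allele st12252[egl-18::TY1::EGFP::3xFLAG], and the fusion protein was precipitated with its DNA by an antibody against GFP. There was 1 group with 2 biological replicates of this single strain and stage, and no control list was analysed here. Chromatin came from whole animals, so the vulval cells are a small part of the material and a peak cannot be assigned to them.

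The vulva of the worm forms from epidermal precursor cells on the ventral side. The anchor cell of the gonad secretes the epidermal growth factor LIN-3, which activates the receptor LET-23 and a Ras pathway that ends at the transcription factors LIN-1 and LIN-31. Neighbouring precursors signal to each other through the Notch receptor LIN-12, the Hox protein LIN-39 keeps the precursors competent, and the descendants switch on genes such as *egl-17*, *lin-11* and *cog-1*. EGL-18 belongs to the GATA family of transcription factors, named for the bases GATA in their binding sites, and is known for a part in keeping vulval precursors and seam cells from fusing with the surrounding epidermis.

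Peak height here is the signal that the authors' peak caller gave each peak, on a scale that is not stated, and it was compared only within a list. The score rises with reproducibility, so that 540 corresponds to an irreproducible discovery rate (IDR) of 0.05 and 830 to 0.01. The ranked list of the series held 117695 peaks covering 31.6% of the genome, and 95.1% of all protein-coding genes had at least 1 of them in the same window. A ranked peak alone is therefore close to background. The thresholded list of the series held 699 peaks. The ranked lists of replicates 1 and 2 held 64911 and 54253 peaks, and their thresholded lists 199 and 232. Peak lists carry no counts of reads, and library depth is unknown here.

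Of the 10 genes, *egl-17* and *unc-62* had peaks in the thresholded list of the series, 3 peaks in all. The same rule called 5.47% of all protein-coding genes, and 8.14% of those whose windows were at least 10 kb long, as 8 of the 10 windows were. A ranked peak with a score of at least 540 was present at 3 of the 10 genes, *lin-12* being added, against 18.3% of all genes and 28.7% of those with long windows. The other 7 had no peak above a score of 473. In the other series ranked list 9 genes had a peak (94.7% of all genes) and the same 3 had one at that score (14.8%). These counts are of genes chosen for their function with earlier results of these data known, and no test was made of them. Per 100 kb of window there were 2.05 thresholded peaks at the 10 genes and 0.742 at all genes, and the first value rests on 3 peaks.

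Ranked peaks were as dense at the vulval genes as elsewhere. There were 1.23 per kb of window, against 1.21 over all protein-coding genes, and the densities of single genes ran from 0.952 per kb at *let-23* to 1.63 per kb at *unc-62*. The strongest peak of each gene had a median height of 51.1 over the 10 genes, 44.7 over all genes and 50.01 over genes with long windows. By that height the order was *egl-17* (105), *lin-12* (72.5), *unc-62* (67.5), *let-23* (52.9), *cog-1* (51.7), *lin-3* (50.6), *lin-39* (42.9), *lin-1* (42.4), *lin-31* (36.5) and *lin-11* (33.6). A strongest peak as high as that of *egl-17* was found at 1.70% of all genes, as high as that of *lin-12* at 5.32% and as high as that of *unc-62* at 7.39%. The windows of *lin-12* and *unc-62* are long, and among genes with long windows the shares were 7.86% and 11.5%. From *let-23* down the strongest peaks were as high as those of ordinary genes, since 25.7% of all genes matched *let-23* and 82.6% matched *lin-11*. Among genes with long windows these shares were 40.1% and 91.9%.

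**Figure D1:**
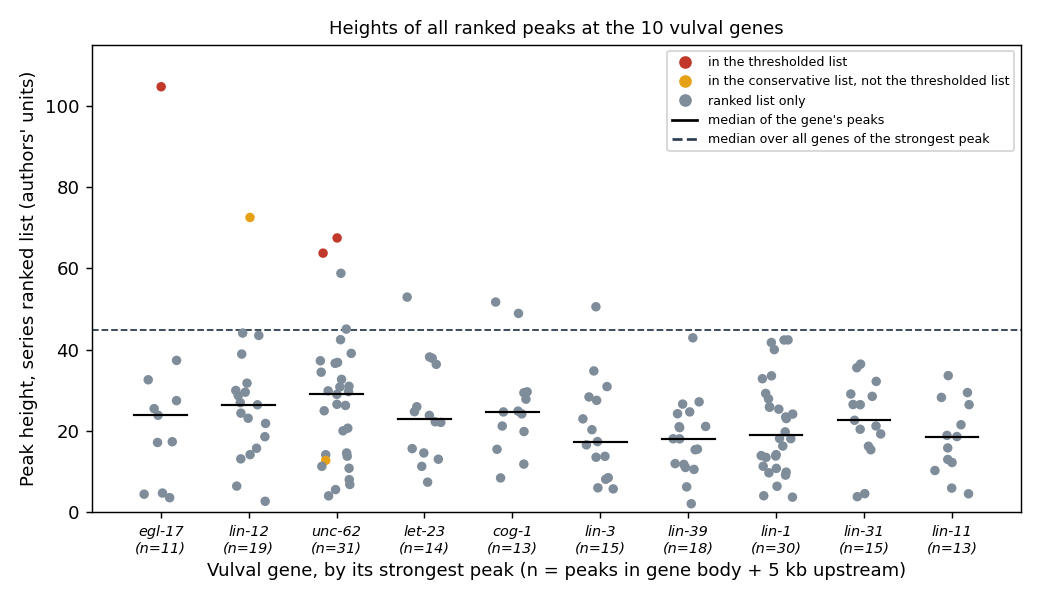
Heights of all 179 ranked peaks at the 10 genes, with genes in the order of their strongest peak on the x axis and the authors' peak height in the series ranked list on the y axis. Red points are in the thresholded list of the series, yellow points only in the conservative one, the short black lines are the median of each gene and the dashed line is the median over all genes of the strongest peak (44.7). The *egl-17* peak of 105 and the peaks of *lin-12* and *unc-62* above 60 stand above the other genes, whose strongest peaks lie between 33.6 and 52.9.

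The sequences around the summits that the results turn on are given here on the strand of the gene, 75 bp to either side of the summit, from the RefSeq WBcel235 assembly, which has the same coordinates as ce11. Capitals mark the tRNA gene at *egl-17*, GATA sites at *lin-12* and *lin-1*, and a repeated word at *let-23*. The distal *lin-12* summit (chrIII:9060429-9060579) holds none of these, and is shown as the second highest of the strongest peaks, with no GATA site. The *egl-17* sequence is at chrX:489832-489982, the *let-23* one at chrII:9202351-9202501 and the *lin-1* one at chrIV:2285828-2285978. At the proximal *lin-12* summit only the 131 coding bases are shown (chrIII:9071258-9071388). The *egl-17* and *let-23* sequences are of the plus strand, and those of *lin-12* and *lin-1* of the minus strand, so that a GATA site may appear as its reverse complement. Which summits to print was decided after their values were seen.
egl-17 summit: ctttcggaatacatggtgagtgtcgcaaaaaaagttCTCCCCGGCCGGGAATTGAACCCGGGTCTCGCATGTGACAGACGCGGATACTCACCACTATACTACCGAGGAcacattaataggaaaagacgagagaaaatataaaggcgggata
lin-12 distal summit: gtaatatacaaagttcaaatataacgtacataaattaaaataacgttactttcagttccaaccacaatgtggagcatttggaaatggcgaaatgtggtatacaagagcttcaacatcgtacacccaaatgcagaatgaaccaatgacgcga
lin-12 proximal summit: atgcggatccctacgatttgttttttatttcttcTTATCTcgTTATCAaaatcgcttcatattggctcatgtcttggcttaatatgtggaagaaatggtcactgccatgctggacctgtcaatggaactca
let-23 summit: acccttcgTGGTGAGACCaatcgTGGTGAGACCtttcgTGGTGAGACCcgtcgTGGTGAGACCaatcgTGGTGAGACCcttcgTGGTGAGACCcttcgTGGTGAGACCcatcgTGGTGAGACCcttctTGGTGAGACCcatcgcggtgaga
lin-1 summit: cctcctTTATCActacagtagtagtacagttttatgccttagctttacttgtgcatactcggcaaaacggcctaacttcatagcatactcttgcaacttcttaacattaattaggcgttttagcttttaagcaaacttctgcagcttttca

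The inductive signal and its receptor had no thresholded peak. *lin-3*, which encodes the epidermal growth factor, had 15 ranked peaks, with heights from 5.77 to 50.6. The strongest lay in a coding exon 6295 bp downstream of the gene start, with a score of 420, and its height was 36.5 in replicate 1 and 20.1 in replicate 2. In replicate 1 this placed it in the top 2.56% of peaks, but in replicate 2 only in the top 30.9%. *let-23*, which encodes the receptor, had 14 ranked peaks, the strongest in an intron 4914 bp downstream of the gene start (height 52.9, score 473). That peak was in the top 31.8% in replicate 1, with a height of 21.5, and in the top 4.22% in replicate 2, with a height of 31.1. The replicates thus ranked the strongest series peaks of ligand and receptor in opposite ways. Replicate 1 had a higher *let-23* peak elsewhere, of height 31.4 (top 6.41%), in a coding exon 8564 bp downstream of the start.

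The *let-23* summit lay in a tandem repeat, as the printed sequence shows. The word TGGTGAGACC, chosen after the sequence was seen and searched on both strands, occurred 9 times in the 151 bp, at 8 steps of 15 bp each. It was present around 0.228% of all ranked summits (268 of 117695), around 4 of the 699 thresholded summits, and around no other of the 179 summits. How the reads of the 2 replicates were placed within such a repeat was not tested.

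*lin-12*, the Notch receptor gene for the lateral signal between precursors, had 19 ranked peaks and the second highest strongest peak of the 10 genes. This peak (chrIII:9060366-9060641) lay in a coding exon 10968 bp from the gene start, close to the 3′ end, with a height of 72.5 and rank 709 in the series. Replicates 1 and 2 gave it heights of 37.5 and 36.9, in the top 2.20% and 1.70% of their ranked lists. Its scores there were only 40 and 203, in lists whose lowest scores were 18 and 13. The peak was thus high by height in both replicates, without a high score for reproducibility in either. Its call depended on which series list was read. In the ranked list of the rule its score was 586, below the lowest score of the thresholded list (830), and in the other ranked list it was 905. It is accordingly in the conservative list of 597 peaks, where 3 of the 10 vulval genes have a peak against 4.84% of all genes, and not in the thresholded list.

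Near its start, *lin-12* had the third of its peaks by height, 139 bp downstream, with a height of 43.5 and a score of 205. It is the highest of the 179 peaks to have a GATA site, and has 2 of them, starting 8 and 16 bp from the summit, both within the first coding exon. Replicates 1 and 2 gave heights of 22.7 and 23.2, in the top 26.7% and 18.4% of their lists. In the series ranked list the peak was in the top 9.12%.

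The genes of the transcription factors at the end of the Ras pathway had no thresholded peak. *lin-1*, which encodes an ETS factor, had the longest window (29.4 kb) and 30 ranked peaks, or 1.02 per kb against 1.21 over all genes. Its 4 strongest, all intronic, had heights of 42.4, 42.4, 41.8 and 40.02, so none stood apart from the rest. Of these 4, replicate 2 listed all with heights from 21.9 to 31.1, and replicate 1 listed the one of 41.8, at 20.6. *lin-31*, a forkhead factor gene, had 15 ranked peaks up to 36.5 in height, and the strongest lay 262 bp upstream of its start. Nearest to that summit, replicate 1 had a peak of height 5.43 and replicate 2 one of height 22.2, while another overlapping peak in replicate 1 reached 18.1. Its score of 119 was the lowest among the strongest peaks of the 10 genes.

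Of the homeobox genes that give the precursors their identity, *unc-62* was called and *lin-39* was not. UNC-62 is a Meis-type protein that acts as a partner of Hox proteins, and its gene has 15 annotated starts. It had 31 ranked peaks, 2 of them thresholded. The first had a height of 67.5, a score of 845 and rank 608 of 699, and the second (chrV:4507218-4507493) had a height of 63.7, a score of 836 and rank 650. Both scores lie just above the lowest score of the list (830). The first summit lay 102 bp upstream of 1 annotated start, in an intron, and the second 152 bp downstream of another, in a non-coding exon part. These distances are to the nearest of the 15 starts. From the gene start, which is used at the other genes, the summits lay 1764 and 9895 bp downstream. With so many starts, low peaks also lay near one, such as a peak of height 14.2 at 8 bp downstream.

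Neither *unc-62* peak was in a replicate's own thresholded list. The first had a height of 36.9 (top 2.42%) in replicate 1 and 30.5 (top 4.78%) in replicate 2. The second had a height of 36.2 (top 2.74%) in replicate 1 and 41.3 (top 1.01%) in replicate 2. Its replicate 1 match had its summit at chrV:4507490, while the series and replicate 2 summits were both at 4507356. Both thus overlapped peaks that were high in both replicates' ranked lists without passing the threshold of either. The conservative list holds the second peak and not the first, and a further *unc-62* peak of height 12.8 that overlaps it, so the first *unc-62* call also depended on the list. The replicate 1 summit at 4507490 is nearer to the summit of that further peak (4507558) than to that of the second peak.

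*lin-39*, the Hox gene, had 18 ranked peaks. The strongest, in an intron 5083 bp downstream of the start, had a height of 42.9 and a score of 341. In replicate 1 its height was 29.9 (top 8.25%). In replicate 2 the nearest overlapping peak had a height of 5.56 (top 97.4%) and another overlapping peak reached 17.5. The strongest *lin-39* peak of replicate 2 lay elsewhere, 4919 bp upstream of the start, with a height of 22.5.

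The genes that carry out vulval cell fates were led by *egl-17*, which encodes a fibroblast growth factor and is a marker of vulval cells. It had 11 ranked peaks, and 1 of them (chrX:489769-490044) was the only peak at the 10 genes to pass a replicate's own threshold. Its height of 105 and score of 1000 put it at rank 232 of the 117695 ranked peaks and 175 of the 699 thresholded ones. Replicates 1 and 2 gave it heights of 54.7 and 44.5, in the top 0.414% and 0.723% of their lists. With a score of 983 it was in the thresholded list of replicate 1 (1.59% of all genes called), and with 543 it was not in that of replicate 2 (1.89%). So none of the 10 genes was called in both replicates' thresholded lists, as 1.07% of all genes were. The next peak of *egl-17* had a height of 37.4.

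The *egl-17* summit lay on a tRNA gene. It was 222 bp downstream of the gene start, in an intron, and within the 72 bp of *F38G1.t2*, a tRNA-Asp gene on the opposite strand (chrX:489868-489939). Of the 3 thresholded peaks at the 10 genes this was the 1 with a tRNA gene within 150 bp of its summit, against 9.73% of all thresholded peaks (68 of 699, exact Clopper-Pearson 95% interval 7.63 to 12.2%). The other windows held no tRNA gene. A second tRNA gene in the *egl-17* window, the tRNA-Thr gene *F38G1.t1* at 1870 bp upstream, had its nearest ranked summit 35 bp away, with a height of 17.2 and rank 78631. The higher of these tRNA genes' peaks was thus the one inside *egl-17*, and whether the gene or the tRNA gene accounts for it cannot be told apart.

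*cog-1*, which encodes a homeobox protein needed for some vulval cell types, had 13 ranked peaks. The 2 strongest, both in coding exons, lay 277 and 2327 bp downstream of the start with heights of 51.7 and 48.9 and scores of 363 and 398. Replicate 1 gave the first a height of 20.1 (top 38.04%) and replicate 2 one of 23.8 (top 16.6%). Replicate 1 gave the second a height of 17.03 (top 54.7%) and replicate 2 one of 28.6 (top 6.88%). *lin-11*, a LIM homeobox gene, had 13 ranked peaks and the lowest strongest peak, of height 33.6, in a coding exon. Replicate 2 gave it a height of 31.8 (top 3.76%). Replicate 1 had no ranked peak in the window of *lin-11*, as was the case for 5.04% of all genes. The gap between its summits there was 15566 bp, and 0.461% of the gaps of that list were as long. The other series ranked list likewise had no peak there.

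**Figure D2:**
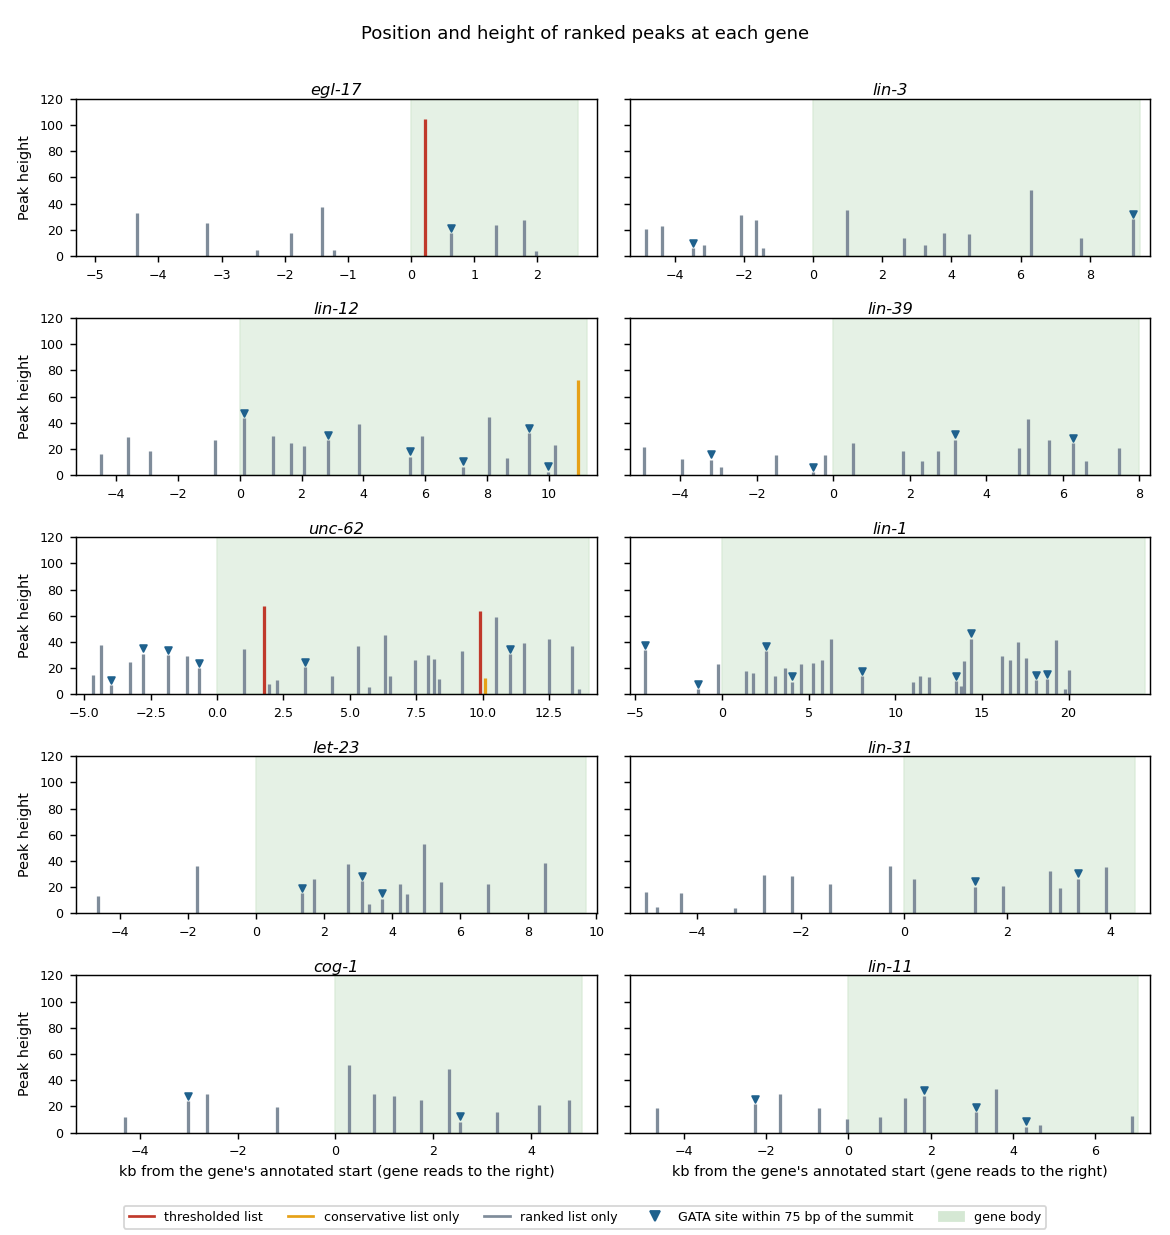
Position and height of the ranked peaks at each gene, with the distance in kb from the annotated gene start on the x axis (the gene reads to the right) and the authors' peak height on the y axis. Red lines are thresholded peaks, yellow lines peaks of the conservative list only, grey lines the others, shading is the gene body and triangles mark a GATA site within 75 bp of the summit. The highest line of *egl-17* is close to its start, that of *lin-12* is at its 3′ end, and 9 of the 10 strongest peaks lie in the gene body.

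The strongest peaks lay mostly inside the genes, at 9 of 10 genes. Over all genes with a ranked peak this share was 34.3%, and it was 60.7% for those with long windows, where the body makes up 66.3% of the window as it does here (65.8%). Of the 179 peaks, 30.2% were upstream, 45.8% in introns, 16.2% in coding exons and 7.82% in non-coding exon parts. Those places made up 34.2%, 48.1%, 11.8% and 5.86% of the windows' sequence. Coding exons held 16.2% of the peaks and 11.8% of the sequence at these genes, and over all genes 19.01% of the peaks and 15.04% of the sequence, so that difference was near the background. Median heights were 19.96 upstream, 21.2 in introns, 27.5 in coding exons and 26.4 in non-coding exon parts.

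The 2 replicates shared few of the peaks at these genes. In replicate 1, 9 of the 10 genes had a ranked peak (95% of all genes), and in replicate 2 all 10 had one (93.8%). At a score of at least 540 each replicate's ranked list held *egl-17* and no other of the 10, against 3.74% of all genes in replicate 1 and 3.55% in replicate 2. Of the 179 series peaks, 20.7% overlapped a ranked peak in both replicates (37 peaks, which are 32 distinct pairs of replicate peaks), against 26.6% of all ranked peaks. A further 41 overlapped one in replicate 1 only (22.9%, against 25.98% of all ranked peaks), 40 in replicate 2 only (22.3%, against 18.9%) and 61 in neither (34.1%, against 28.6%). These shares were near those of the whole list. *unc-62* held 14 of the 37, and *lin-11* none. In the replicates' own lists the same 3 genes came first by their strongest peak. These heights were 54.7 for *egl-17*, 37.5 for *lin-12* and 36.9 for *unc-62* in replicate 1, and 44.5, 36.9 and 41.3 for those genes in replicate 2. Below them the order differed. *lin-3* was the fourth in replicate 1 (36.5) and the last in replicate 2 (21.3), and *lin-1* had 20.6 in replicate 1 and 31.1 in replicate 2. The order of the lower genes is therefore within the spread between replicates.

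**Figure D3:**
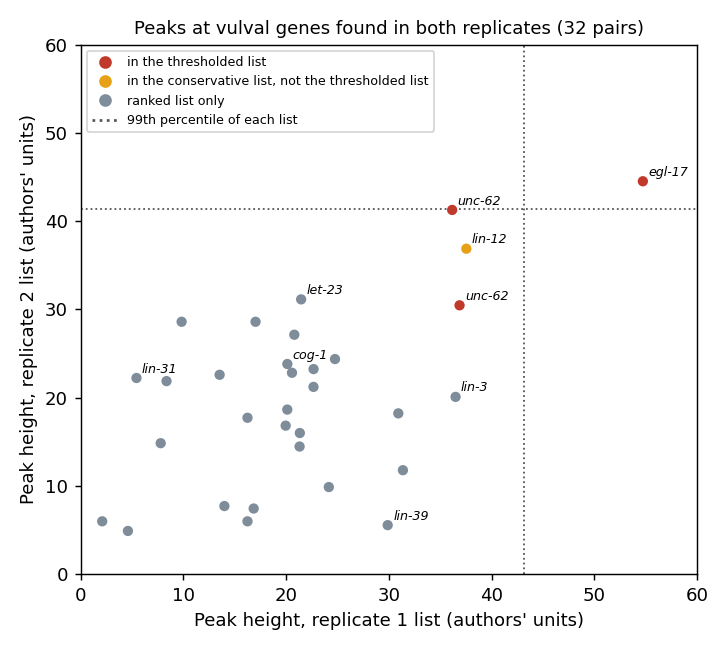
Heights of the peaks at the 10 genes that overlap a ranked peak in both replicates, with replicate 1 on the x axis and replicate 2 on the y axis in the authors' units, 1 point for each of the 32 distinct pairs. Colours are as for the plot of heights by gene, the dotted lines are the 99th percentile of each replicate's list, and names mark the strongest peak of a gene or a thresholded peak. Only the *egl-17* peak lies above both dotted lines, at 54.7 and 44.5.

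GATA sites were not gathered at the peaks of the vulval genes. The sites searched were AGATAA or AGATAG and likewise TGATAA or TGATAG, on both strands and within 75 bp of the summit. At the series summits none of the 3 thresholded peaks had one. Of the 10 strongest peaks 1 did, at *lin-1*, where the site lay 64 bp from the summit. That count depended on the window, since 40% of the strongest peaks had a site within 150 bp and 0% within 50 bp. Of all 179 peaks, 39 had a site (21.8%, exact Clopper-Pearson 95% interval 15.98 to 28.6%), against 26.02% of all ranked peaks, 15.5% of all thresholded peaks and 28.3% of genome windows of the same length. The windows of the 10 genes held 390 sites, of which 46 (11.8%) lay within 75 bp of a summit, while 17.9% of the possible 6-base positions did. The same shares over all genes are not given here, so this is not shown to be particular to the 10 genes. GC content around summits was 39.1% at these genes and 39.0% over all ranked peaks, against 35.4% in the genome windows. The part of that difference in the share of sites was not tested. The share of sites was below the share of positions at 9 of the 10 genes, and at *lin-12* it was 17.4% against 17.1%.

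Base composition was set beside height. Across the 179 peaks the height had a Spearman's rho of 0.29 with the GC content of the 151 bp around the summit, as across all ranked peaks (0.29), which share libraries and sequence composition. Peaks with a site had a median height of 20.1 and those without 23.1, and their median GC contents were 37.7% and 39.4%. Over all ranked peaks the medians went the same way, with heights of 21.8 with a site and 23.3 without, and GC contents of 37.1% and 39.1%. The part of GC content in the difference was not tested. Of the 18 peaks at least 40 in height, a limit chosen after the values were seen, 2 had a site (11.1%, against 21.6% of all ranked peaks of that height), the proximal *lin-12* peak and the strongest of *lin-1*.

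**Figure D4:**
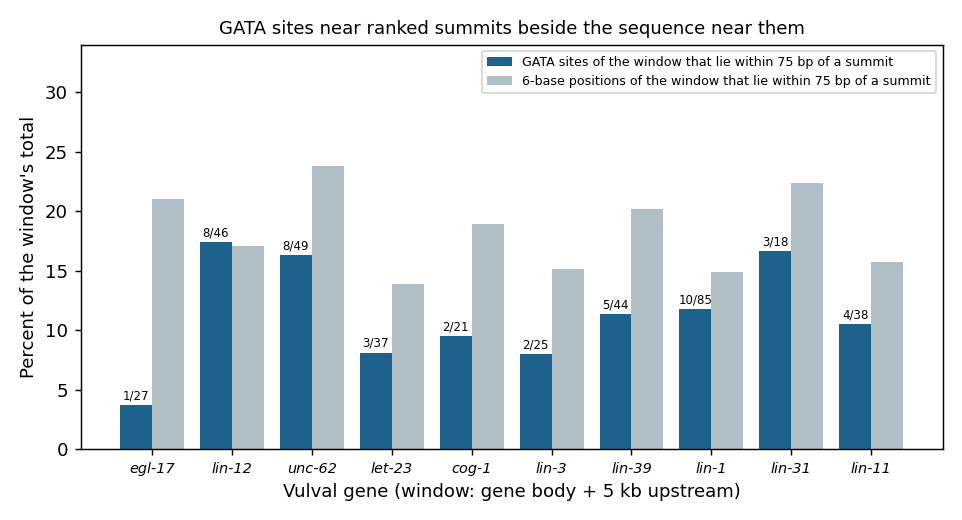
Share of the GATA sites of each gene's window that lie within 75 bp of a ranked summit (dark bars, with counts above) beside the share of all 6-base positions that do (light bars), in percent on the y axis and with the genes on the x axis. The dark bar is shorter at every gene but *lin-12*, from 3.70% against 21.1% at *egl-17* to 16.7% against 22.4% at *lin-31*. The same shares over all genes are not shown.

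A wider list of 75 vulval genes, of which 73 were found by symbol in the annotation, was read by the same rule. It holds genes of the Ras, Notch and Wnt pathways and of fate execution, and was likewise chosen with earlier results known. Of the 73, 5 had a thresholded peak (6.85%, against 5.47% of all genes) and 14 a peak with a score of at least 540 (19.2%, against 18.3%), both close to the background. Their windows had a median of 10.8 kb, against 7.03 kb over all genes. Among genes with windows of at least 10 kb the shares were 8.14% and 28.7%. Per 100 kb of window there were 0.535 thresholded peaks at the 73 genes and 0.742 at all genes. The count of 5 depended on the list, since 3 of the 5 (*egl-18*, *lin-29* and *fos-1*) were also called in the conservative list, and *lin-15A* and *egl-43* were not. The median height of the strongest peak was 49.2. *egl-18* itself was called by an intronic peak of height 81.1. *lin-29*, a zinc finger gene of the larval-to-adult switch, had a peak of height 78.8 in a non-coding exon part, 17555 bp from its start. *lin-15A*, one of the genes that restrain vulval induction, had a peak of height 75.2 in a coding exon. The anchor cell genes *fos-1* and *egl-43* had peaks of height 71.2, 3082 bp upstream of the start, and 66.9, in an intron. None of these 5 peaks had a GATA site within 75 bp of its summit or a tRNA gene within 150 bp, and none was in a replicate's thresholded list.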

How the data were processed

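The measurements were ChIP-seq peaks of GFP-tagged EGL-18 in 2 biological replicates, numbered as in the labels. Sonication gave chromatin fragments of 200 to 800 bp, per the labels. The 8 peak lists were deposited by the authors on ce11, and those of a replicate were made from it alone while the series lists derive from both, per the accompanying descriptions. Aligner and peak caller: not given in the sources used here. Peak height is the deposited signal column, and the deposited score is the smaller of 1000 and 125 times the negative base-2 logarithm of global IDR, which held within 1 for 99.99% or more of the peaks of every ranked list. For that check the global IDR was read from a −log10 column deposited by the authors. A total of 4 columns of input heights in the series ranked lists name no sample and were not used.

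Genes came from Ensembl release 115 (WBcel235). Peaks were assigned by summit, and a replicate peak was matched to a series peak by overlap of at least 1 bp and the nearest summit. Ranks are by height. Windows of 10 kb or more served as a second background. Matching by nearest summit (in place of the highest overlapping peak), 6-base positions as the denominator for GATA sites, the 10 kb background, the height limit of 40, the gap at *lin-11* and the repeated word at *let-23* were chosen after values were seen, and tRNA genes were named from RefSeq. With 1 group and no control list no test between groups was possible, and values are descriptions. Members, lists and the rule for named genes (the members, genes and tRNA genes at their thresholded peaks, and the called genes of the wider list) were chosen with earlier results of these data known. Window assignment and site search were tested on simulated data. Intervals cover the number of peaks only. The summit sequences of *unc-62* are not reported here. Alternatives were window size, overlap, list, score, replicate and site window. Software was Python 3.11.15 with scipy 1.17.1, numpy 2.4.6, matplotlib 3.10.9 and pandas 2.3.3.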

Additional observations from a re-analysis of the deposited data

How the results depend on the processing

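Of 48 alternatives for 10 results, 32 kept the value within 1.5 times the count, the spread between replicates or the binomial interval, and 16 did not. These limits were wide for small counts. A count of 3 in place of 2 passed, and the interval for 1 of 10 strongest peaks with a GATA site ran from 0.253 to 44.5%. A share of 40% was thus counted as kept, so the tally is no measure of stability. Of the 48 alternatives 3 were added after seeing the data. With the highest overlapping peak in place of the nearest summit, the strongest *lin-39* peak had a height of 17.5 in place of 5.56 in replicate 2, and that of *lin-31* 18.1 in place of 5.43 in replicate 1, while all bases in place of 6-base positions gave 18.5% in place of 17.9% of the windows. Genes with a thresholded peak numbered 2 for windows of 1000 to 10000 bp upstream, for any overlap and with the nearest gene start. They numbered 3 with the conservative list. All 3 thresholded summits lay in gene bodies, so a shorter upstream window could not lower the count. Leaving a replicate out meant reading the other replicate's own list, of 199 or 232 thresholded peaks against 699. Those lists gave from 0 to 1 genes and from 0 to 1 thresholded peaks. Lower counts in shorter lists cannot show dependence on a replicate. Genes with a score of 540 or more numbered 1 with either replicate left out. With 10000 bp upstream *lin-1* was added, by a peak of height 57.3 at 5550 bp. Thresholded peaks at a tRNA gene numbered from 0 to 1 without a replicate. Ranked peaks per kb were 0.507 and 0.589 without a replicate, in lists of 54253 and 64911 ranked peaks against 117695. They were 1.00 in the other series ranked list and 0.0274 at a score of 540 or more, by construction. Strongest peaks with a GATA site were 0% within 50 bp, 40% within 150 bp and 60% for GATA alone, a shorter word, and 10% to 22.2% without a replicate. A wider window or a shorter word can only raise the share, and shares over all peaks at those settings are not given here. At a score of 540 or more in both replicates' ranked lists 1 gene was called, *egl-17*. No paired analysis was possible because there is 1 group. The depth of the libraries is unknown, so a peak missing from a list is not shown to be absent.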
